A study of Mus musculus with 8 samples.

Results

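The genes described are 10 that smooth muscle uses to build and control its contractile apparatus: Acta2, Actg2, Tagln, Cnn1, Myl9, Myh11, Tpm1, Tpm2, Cald1 and Srf. They were found by symbol among the 47706 genes of the count table, each had 1 entry, and all 10 were among the 16736 genes with enough counts to be tested. RNA was sequenced from 8 cultures of calvarial osteoblasts, bone-forming cells taken from the skullcap of newborn mice, of which 4 were treated with parathyroid hormone (PTH) and 4 with vehicle. The titles of all 8 samples begin with Con, which neither the labels nor the methods explain for these cultures. Both groups were differentiated for 7 days, serum-starved for 6 hours and treated for 24 hours, so differentiation and starvation were shared by the controls. The labels name the medium as adipogenic, while the methods describe osteogenic medium, and the strain of the mice is not given for these cultures. Neither source says whether the samples of a group came from separate cell preparations, so p-values measure the spread between these samples, which may be technical.

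In smooth muscle, actin filaments slide against myosin to make force. Acta2 and Actg2 encode the smooth muscle actins, Myh11 the myosin heavy chain and Myl9 the light chain whose phosphorylation switches the motor on, while tropomyosins (Tpm1, Tpm2), caldesmon (Cald1), calponin 1 (Cnn1) and transgelin (Tagln) bind the filament. Serum response factor, encoded by Srf, is a transcription factor that binds the CArG box, a run of A and T bases between CC and GG, in many of these genes. Its cofactors of the myocardin family (MRTFs) respond to the pool of free actin, and its ternary complex factor (TCF) partners respond to growth factor signaling. Cells outside smooth muscle, such as myofibroblasts and cultured mesenchymal cells, also express several of these genes.

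The Srf, Cnn1 and Myl9 promoters are shown because Srf had the largest decrease of the 10 genes, Cnn1 the largest increase, and Myl9, which did not pass the test, holds a CArG box and a further box with 1 G in the core. The sequences are those of RefSeq on GRCm38.p6, 5′ to 3′ on the strand of the gene, and end before the gene starts in both RefSeq and GENCODE M21. They lie at chr17:46556176-46556412 on the minus strand for Srf, at chr9:22099003-22099215 on the plus strand for Cnn1 and at chr2:156775214-156775419 on the plus strand for Myl9. Capitals mark CArG boxes and CArG boxes with 1 C or G in the core.
Srf: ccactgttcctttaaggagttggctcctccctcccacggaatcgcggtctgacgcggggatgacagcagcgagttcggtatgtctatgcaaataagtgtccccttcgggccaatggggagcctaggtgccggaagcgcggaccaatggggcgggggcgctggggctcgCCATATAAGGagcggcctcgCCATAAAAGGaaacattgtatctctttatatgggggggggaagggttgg
Cnn1: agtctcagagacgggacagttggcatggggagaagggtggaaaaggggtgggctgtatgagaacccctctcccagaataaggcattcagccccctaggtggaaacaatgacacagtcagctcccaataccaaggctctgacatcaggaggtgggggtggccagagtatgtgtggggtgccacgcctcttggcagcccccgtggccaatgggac
Myl9: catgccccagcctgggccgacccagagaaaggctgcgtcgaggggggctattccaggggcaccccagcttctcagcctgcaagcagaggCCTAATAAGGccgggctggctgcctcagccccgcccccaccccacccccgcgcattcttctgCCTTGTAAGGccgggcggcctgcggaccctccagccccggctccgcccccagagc

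Promoter windows of 300 bases, with 250 bases before the RefSeq start, were held for 7 of the 10 genes. CArG boxes were found in 2 of these, with 1.63% of all 32851 windows holding one. The Srf window held 2, CCATATAAGG and CCATAAAAGG, which began 82 and 62 bases before the start. The Myl9 window held CCTAATAAGG at 161 bases and, with 1 G in the core, CCTTGTAAGG at 99 bases. The Acta2 window held 2 boxes with 1 C or G in the core, CCCTATATGG at 84 bases and CCTTGTTTGG at 34 bases, and 8.50% of all windows hold such a box. Its RefSeq start lies 217 bases inside the GENCODE gene. No match to either form was found in the windows of Cnn1, Tpm1, Tpm2 and Cald1. The RefSeq starts of Tpm1 and Tpm2 lie 193 and 211 bases inside their GENCODE genes, and Cald1 has 2 windows, with starts 4 and 110944 bases inside, so sequence before the GENCODE start was covered only in part or, in the second Cald1 window, not at all. The full cyclic AMP response element TGACGTCA, a site of CREB factors that act downstream of the PTH receptor, was found in 0 of the 7 genes and in 1.79% of all windows. Shorter forms of this element were not searched, so the windows may hold them. Both strands were searched, and the motifs were not seen to overlap in these windows. A match is a description of the letters and not of binding.

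CPM here are read counts scaled by the TMM-adjusted size of each library, and levels were compared between genes as CPM per kilobase of the longest coding transcript. In vehicle-treated cultures Acta2 was the highest of the 10, with 922 ± 72.5 CPM per kilobase (SD, n = 4), above 99.8% of tested genes. Tpm1 (539 ± 56.0), Myl9 (332 ± 47.8), Tagln (325 ± 42.7), Cald1 (211 ± 6.54), Tpm2 (135 ± 18.9) and Actg2 (102 ± 9.98) followed in that order, all in CPM per kilobase. Cnn1 (32.2 ± 3.48) and Srf (22.8 ± 0.646) were lower, and Myh11, the smooth muscle myosin, was the lowest with 2.18 ± 0.246 CPM per kilobase, above 33.2% of tested genes. Myl9 and Tagln overlapped between samples, while every other pair of neighbours in this order was separate. With PTH, Tagln and Myl9 changed places within their overlap, and Cnn1, at 141 ± 28.3 CPM per kilobase, passed Actg2 and Tpm2 and overlapped with Tpm2 (138 ± 8.74). Acta2 remained first (745 ± 71.4) and Myh11 last (1.86 ± 0.263). Counting the length as all exons together moved 6 of the 10 genes in the vehicle order, among them Tpm1, which went from position 2 to 4.

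PTH changed 4 of the 10 genes by edgeR's quasi-likelihood test: Cnn1 rose, and Srf, Actg2 and Acta2 fell. Of all tested genes 45.8% passed the same test, 23.3% as higher and 22.5% as lower with PTH, so 4 of 10 is a share near that of all genes. The median log2 ratio of PTH over vehicle was -0.17 over the 10 genes and -0.00081 over all tested genes. The changes of Srf and Cnn1 were more than 3 times those of the other 8 genes on the log2 scale. All PTH samples lay above all vehicle samples in 2 of the 10 genes (Cnn1 and Cald1), against 21.2% of tested genes, and below them in 3 (Acta2, Actg2 and Srf), against 21.8%, or 43.0% of tested genes in all. A bulk sample cannot tell fewer cells that express a gene from less RNA per cell.

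**Figure D1:**
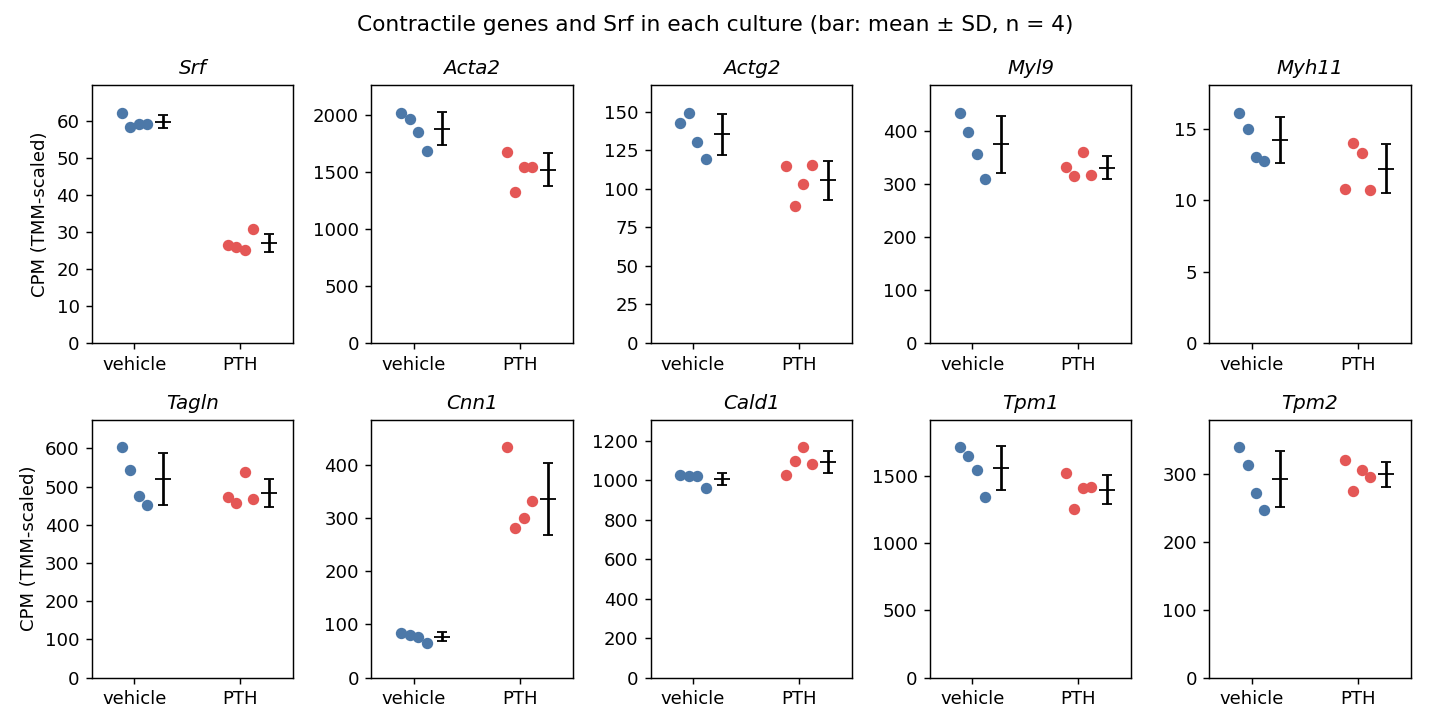
CPM of each gene in each of the 8 cultures, on a separate linear axis from 0 for each gene, with points for replicates 1 to 4 from left to right and bars for the mean ± SD of 4. Srf lies between 58.4 and 62.2 CPM with vehicle and between 25.0 and 30.6 with PTH, Cnn1 is separated in the other direction, and Tagln, Myl9, Myh11, Tpm1 and Tpm2 overlap.

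Srf, on chromosome 17 from 46548329 to 46556175 (GRCm38 in GENCODE M21, as for the other genes), had 62.2, 58.4, 59.2 and 59.1 CPM in vehicle replicates 1 to 4 and 26.5, 25.9, 25.0 and 30.6 CPM in PTH replicates 1 to 4. The highest PTH-treated culture was far below the lowest vehicle-treated one, and the vehicle samples were close to each other. Expression fell by 1.14 on the log2 scale (SE 0.0744, adjusted p = 1.32e-07), to 0.453 of the vehicle level, which placed Srf 528th by size of decrease among all tested genes. The counts behind these values were 2542 to 2933 with vehicle and 862 to 1358 with PTH. In fits without any 1 of the samples, the value lay between -1.21 and -1.11 and passed the test in all 8 fits.

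Cnn1, on chromosome 9 from 22099216 to 22109630, encodes calponin 1, which binds actin and slows myosin. It stood at 84.1, 80.9, 76.1 and 65.2 CPM in vehicle replicates against 432, 282, 299 and 331 CPM in PTH replicates. PTH replicate 1 was the highest, and each of the 4 PTH values was more than 3 times every vehicle value. The log2 ratio was 2.13 (SE 0.132, adjusted p = 8.52e-08), a 4.39-fold increase, which placed Cnn1 445th by size of increase among all tested genes. Fits without any 1 of the samples lay between 1.99 and 2.22 on the log2 scale, and 8 of 8 passed. Elof1, which lies within 10 kb of Cnn1 on the opposite strand, had a log2 ratio of 0.26 (adjusted p = 0.0844). Tested genes within 10 kb of Srf were Cul9 (-0.29, adjusted p = 0.0431) and Ptk7 (-0.03, adjusted p = 0.868). Stambpl1, near Acta2, had -0.29 (adjusted p = 0.0853). Near Actg2 (-0.36), Dguok (-0.59, adjusted p = 4.65e-04) and Stambp (-0.47, adjusted p = 5.91e-04) fell by more than Actg2. Whether these genes change together with their neighbours was not tested. Relative to another contractile gene of the same sample, there were between 3.88 and 4.17 Cnn1 counts for each 100 Acta2 counts with vehicle and between 19.4 and 25.9 with PTH. That ratio does not depend on scaling between samples.

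Both smooth muscle actins fell, by less than Srf. Acta2, on chromosome 19 from 34241090 to 34255590, stood at 2017, 1960, 1850 and 1682 CPM in vehicle replicates against 1672, 1321, 1539 and 1536 CPM in PTH replicates. The treatments did not overlap, but vehicle replicate 4 and PTH replicate 1 were almost equal. Expression fell by 0.31 on the log2 scale (SE 0.0929, adjusted p = 0.0172). The adjusted p rose to 0.0642 without vehicle replicate 1 and to 0.0635 without vehicle replicate 2, and over all 15 alternatives it lay between 6.79e-04 and 0.0642. Actg2, the enteric smooth muscle actin, on chromosome 6 from 83512905 to 83536265, stood at 143, 149, 130 and 120 CPM in vehicle replicates against 115, 88.7, 103 and 115 CPM in PTH replicates. Again the treatments were separate by a narrow gap. Actg2 fell by 0.36 (SE 0.0961, adjusted p = 0.00891) and passed in 8 of 8 fits without 1 sample. Between 1311 and 1422 Acta2 counts were found for each 100 Actg2 counts with vehicle and between 1333 and 1489 with PTH, ranges that overlap. The Acta2 and Actg2 transcripts were 84.2% identical over 1143 bases, and neither shared 150 bases at 95% identity with another gene. The 5 genes outside the list whose centred log2 CPM over the 8 samples was nearest to that of Acta2 were Zdhhc6, Sfrp2, Tasp1, Akap1 and Egfl6, with root mean square differences of 0.0415 to 0.0501.

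**Figure D2:**
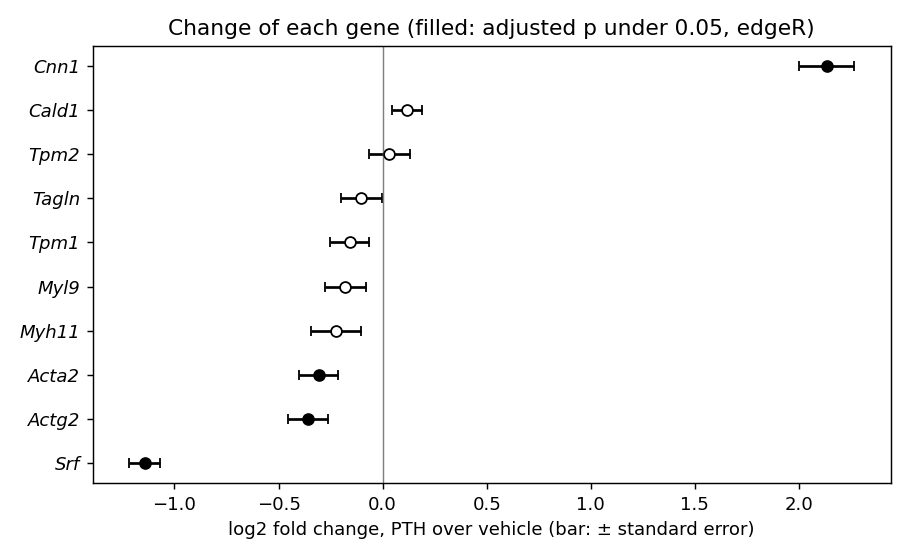
Log2 ratio of PTH over vehicle for each of the 10 genes on a linear axis, with the SE as bars, filled where the adjusted p of edgeR was under 0.05. Srf at -1.14 and Cnn1 at 2.13 lie apart from the other 8 genes, which lie between -0.36 and 0.12.

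Tagln, on chromosome 9 from 45929619 to 45936058, encodes transgelin (SM22), an actin-bundling protein. Its values were 603, 544, 476 and 453 CPM with vehicle and 472, 457, 538 and 467 CPM with PTH, and the treatments overlapped. The log2 ratio was -0.10 (SE 0.0969, adjusted p = 0.420). Pcsk7 overlaps Tagln on the opposite strand with 24.2 CPM in vehicle and 28.5 CPM in PTH samples on average, and without a stated strand setting reads of the pair cannot be told apart. Tagln also shares at least 150 bases at 95% identity with 1 gene, Gm48529, which has no entry under that symbol in the count table. The counts of Tagln are uncertain to that extent. Myl9, on chromosome 2 from 156775420 to 156781658, stood at 435, 398, 356 and 310 CPM in vehicle replicates against 332, 314, 361 and 317 CPM in PTH replicates, with a log2 ratio of -0.18 (SE 0.0995, adjusted p = 0.165). Without vehicle replicate 4, its lowest sample, Myl9 passed the test (log2 ratio -0.26, adjusted p = 0.0402). Myh11, on chromosome 16 from 14194535 to 14291372, ranged from 12.8 to 16.2 CPM with vehicle and from 10.7 to 14.1 CPM with PTH, which overlap. These rest on 451 to 724 counts per sample, the fewest of the 10 genes, and the log2 ratio was -0.22 (SE 0.120, adjusted p = 0.148).

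The filament-binding genes Tpm1, Tpm2 and Cald1 did not pass the test either. Tpm1, on chromosome 9 from 67022590 to 67049406, stood at 1710, 1644, 1539 and 1340 CPM in vehicle replicates against 1516, 1250, 1405 and 1415 CPM in PTH replicates, a log2 ratio of -0.16 (SE 0.0946, adjusted p = 0.196). Tpm2, on chromosome 4 from 43514711 to 43523765, stood at 340, 314, 272 and 248 CPM in vehicle replicates against 321, 276, 306 and 296 CPM in PTH replicates, a log2 ratio of 0.03 (SE 0.0971, adjusted p = 0.810). Vehicle replicates spread more widely than PTH replicates for both. Cald1, on chromosome 6 from 34598500 to 34775473, encodes caldesmon, which in nonmuscle cells is made in a shorter form that gene counts do not separate. It stood at 1026, 1024, 1022 and 961 CPM in vehicle replicates against 1027, 1097, 1167 and 1080 CPM in PTH replicates, so the lowest PTH value was almost equal to the highest vehicle value, though above it. The log2 ratio of Cald1 was 0.12 (SE 0.0706, adjusted p = 0.202), while an exact permutation test gave a two-sided, unadjusted p of 0.0286. That value is the smallest that 4 against 4 samples allow, and any gene whose treatments do not overlap reaches it. Treatments did not overlap in 43.0% of tested genes, so the permutation test does not set Cald1 apart.

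The direction of small changes depended on scaling. With total counts as library size in place of TMM, the median log2 ratio of all tested genes was -0.13, and Tpm1 (-0.29, adjusted p = 0.0120), Myl9 (-0.30, adjusted p = 0.0212) and Myh11 (-0.35, adjusted p = 0.0446) joined Acta2, Actg2 and Srf as lower, for 6 of the 10 genes. Cald1 then had -0.0076 and Tpm2 -0.09. Calls over all genes shifted to 2889 higher and 5356 lower under that scaling, from 3907 and 3762.

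The vehicle-treated cultures differed among themselves in the same way for most of these genes. Vehicle replicate 1 was the highest and replicate 4 the lowest of the 4 in 8 of the 10 genes, a pattern found in 11.8% of all tested genes. The exceptions were Srf, whose lowest value was in replicate 2, and Actg2, whose highest was in replicate 2. Among PTH-treated cultures, replicate 2 was the lowest in 7 of the 10 genes, against 29.7% of tested genes. The nearest pair in centred log2 CPM over the 8 samples was Myl9 and Tagln (root mean square difference 0.0527), followed by Acta2 and Actg2 (0.0628).

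Shares within a gene family do not depend on scaling between samples, and they gave another view of Acta2 and Tpm1. Acta2 held 32.6%, 31.9%, 31.1% and 29.4% of the counts of the 6 actin genes in vehicle replicates 1 to 4 and 40.1%, 38.9%, 39.3% and 37.6% in PTH replicates. Its share was 7.70 percentage points higher with PTH (exact permutation test, two-sided p = 0.0286, adjusted over 3 shares 0.0429), although its CPM was lower. That p is the smallest that 4 against 4 samples allow, and any share whose treatments do not overlap in this direction or the other reaches it. Other actins fell by more than Acta2: Actb, cytoplasmic beta-actin, fell from 2222 ± 51.8 to 1100 ± 118 CPM (log2 ratio -1.01, adjusted p = 1.98e-06) and Actg1, cytoplasmic gamma-actin, from 1757 ± 37.9 to 1167 ± 86.9 CPM (log2 ratio -0.59, adjusted p = 6.20e-05). Actb held 37.1% ± 0.798 of actin counts with vehicle and 28.2% ± 1.17 with PTH. Actg1 is in an assembled locus with 2 other symbols. Actg2 made up 2.26% ± 0.147 with vehicle and 2.71% ± 0.0976 with PTH, and the sarcomeric actins Acta1 and Actc1 were at most 0.103% in any sample.

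In the tropomyosin family, Tpm1 held 57.0%, 56.7%, 56.7% and 53.5% of counts with vehicle and 48.0%, 45.8%, 46.3% and 47.8% with PTH. The share dropped by 9.01 percentage points (exact permutation test, two-sided p = 0.0286, adjusted over 3 shares 0.0429), although the CPM of Tpm1 did not pass its test. Tpm4 rose from 702 ± 26.2 to 977 ± 61.9 CPM (log2 ratio 0.48, adjusted p = 2.07e-04), and Tpm3 rose from 226 ± 6.60 to 298 ± 9.89 CPM (log2 ratio 0.40, adjusted p = 1.89e-04). Tpm1 has 16 and Tpm3 has 7 coding transcripts in GENCODE M21. Gene counts do not separate these forms, so the shares do not tell muscle from nonmuscle tropomyosins. The Tpm2 share was 10.5% ± 0.676 with vehicle and 10.1% ± 0.0652 with PTH, a difference of -0.42 percentage points (exact permutation test, two-sided p = 0.400, also after adjustment over 3 shares). The calponin family was looked at after the values had been seen and is given without a test. Cnn1 made up between 5.51% and 6.11% of calponin counts with vehicle and between 20.9% and 26.8% with PTH. Cnn2 went from 42.0% ± 1.40 to 27.2% ± 1.60, and Cnn3 from 52.1% ± 1.42 to 49.6% ± 0.941.

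**Figure D3:**
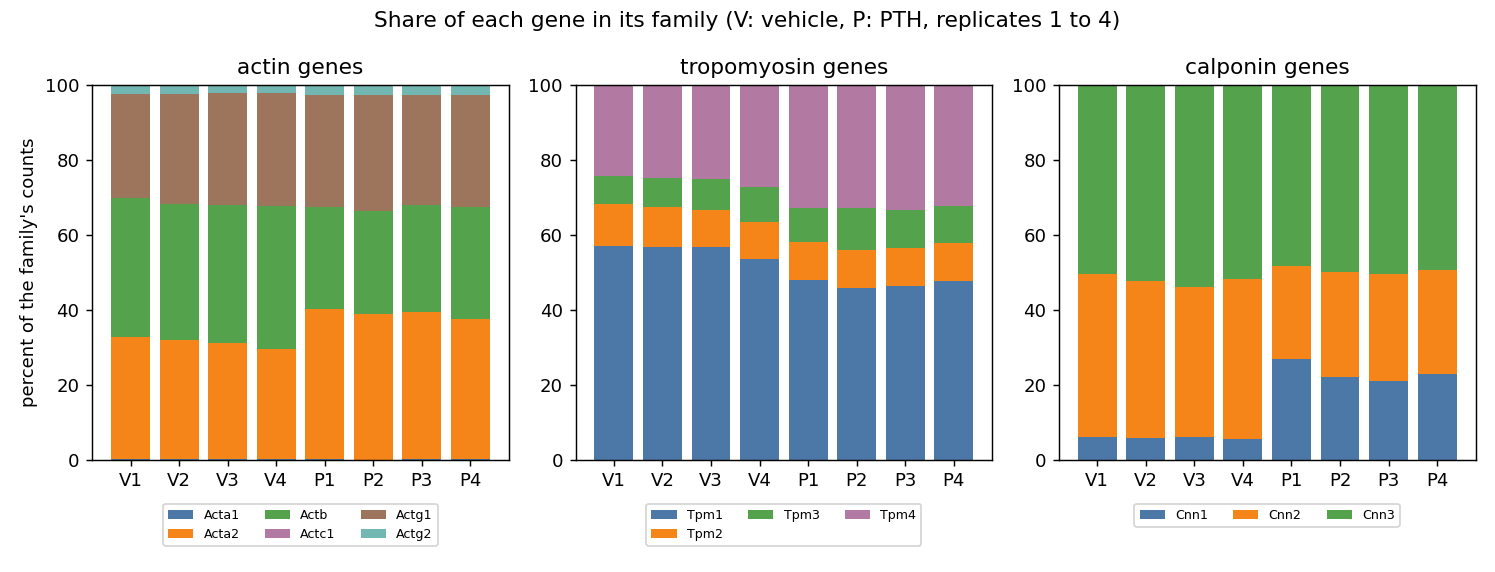
Stacked bars of the percent of counts that each gene holds in the actin, tropomyosin and calponin families, one bar for each culture. Acta2 takes 29.4% to 32.6% of actin counts with vehicle and 37.6% to 40.1% with PTH, Tpm1 takes less of the tropomyosin counts with PTH, and Cnn1 takes 20.9% to 26.8% of the calponin counts with PTH.

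Of 7 listed genes of the myocardin and ternary complex factor families 6 were tested, and 0 were higher and 3 lower, with a median log2 ratio of -0.21. The 3 of 6 called are near the 45.8% called among all tested genes, of which 22.5% were lower. Mamstr, which encodes a relative of myocardin whose action with SRF was not tested, fell from 12.2 ± 2.16 to 4.83 CPM (log2 ratio -1.33, adjusted p = 5.54e-05). Elk3, a ternary complex factor, fell from 53.6 ± 1.61 to 35.7 ± 2.41 CPM (-0.58, adjusted p = 2.17e-05), and Mrtfb fell from 36.4 ± 1.99 to 29.0 ± 2.24 CPM (-0.33, adjusted p = 0.00394). Mrtfa averaged 57.4 CPM in vehicle and 53.7 CPM in PTH samples (adjusted p = 0.245). Myocd, which encodes myocardin itself, was under the filter with means of 0.163 CPM in vehicle and 0.122 CPM in PTH samples.

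Of 13 MRTF-SRF target genes of the actin cytoskeleton, all of them tested, 9 were lower and 1 higher with PTH, beside 22.5% lower and 23.3% higher among all tested genes, and the median was -0.37. The largest decreases were those of Tgfb1i1, which encodes the focal adhesion protein Hic-5 (161 ± 5.94 to 82.2 ± 1.91 CPM, log2 ratio -0.97, adjusted p = 5.77e-08) and of Fhl2, a LIM-domain protein (44.6 ± 4.41 to 23.7 ± 1.85 CPM, -0.92, adjusted p = 4.73e-06). Lima1, Pdlim7, Vcl, Zyx, Actn1, Pdlim5 and Tln1, which encode proteins of filaments and focal adhesions, also fell, with log2 ratios of -0.84 to -0.22. Flna, which encodes the crosslinking protein filamin A, rose from a mean of 1061 to 1730 CPM (log2 ratio 0.71, adjusted p = 1.15e-04). Promoter windows were held for 12 of these genes, some with more than 1, and 5 genes hold a CArG box, beside 1.63% of all single windows. The list was chosen as targets of SRF, so this difference is no test. The windows with the box in Lima1, Fhl1 and Filip1l have starts 55307, 47896 and 196149 bases inside their GENCODE genes. Of the 5, Vcl, Fhl2 and Lima1 fell, while Fhl1 (log2 ratio -0.03) and Filip1l (0.08) did not pass the test. Whether the box goes with the decrease was not tested.

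The immediate early genes, which SRF binds with ternary complex factors, rose in 4 of 7 cases and fell in 1, beside 23.3% higher and 22.5% lower among all tested genes, and the median was 0.34. Fos, an AP-1 subunit, rose from 8.89 ± 0.898 to 212 ± 20.6 CPM (log2 ratio 4.58, adjusted p = 1.09e-11). Egr4, counted among the 4, had 4 to 8 counts with vehicle and 29 to 56 with PTH (0.118 ± 0.0397 and 1.01 ± 0.0990 CPM, log2 ratio 3.06). It passed the filter on low counts only through the PTH samples, where it is high, so its call is not independent of the filter. Ier2 (1.27, adjusted p = 1.66e-07) and Egr1 (0.34, adjusted p = 0.00584) also rose, while Egr3 fell from 2.16 ± 0.348 to 0.888 ± 0.241 CPM (-1.28, adjusted p = 0.00217). Fosb and Egr2 did not pass the test.

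**Figure D4:**
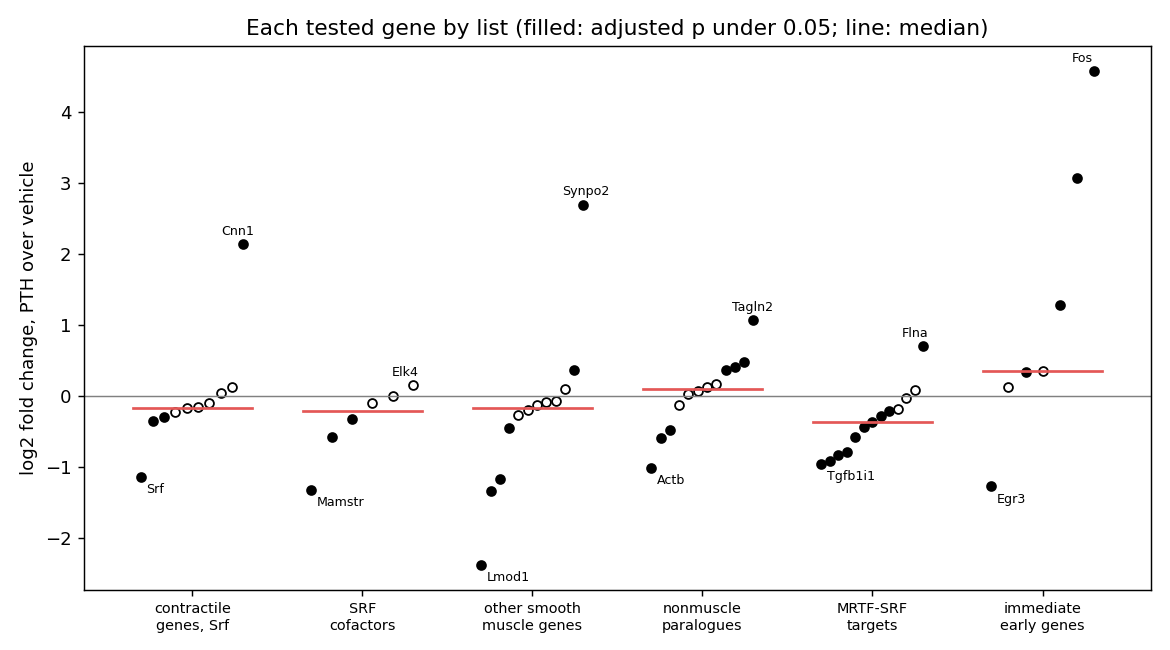
Log2 ratio of PTH over vehicle for each tested gene of the 10 contractile genes and of 5 related lists, filled where the adjusted p of edgeR was under 0.05, with a line at the median of each list. MRTF-SRF targets have a median of -0.37 and immediate early genes of 0.34, and the extremes are Fos at 4.58 and Lmod1 at -2.39.

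Of 14 other genes of the smooth muscle program, 12 were tested, 2 were higher and 4 lower (8 lower with total counts as library size), and the median was -0.17. The 6 of 12 called are near the 45.8% called among all tested genes. Synpo2, which encodes the actin-bundling protein myopodin, stood at 9.53, 10.9, 9.79 and 8.12 CPM in vehicle replicates against 59.9, 65.1, 61.0 and 61.4 CPM in PTH replicates (log2 ratio 2.69, adjusted p = 3.15e-10). Lmod1, leiomodin 1, which nucleates smooth muscle actin filaments, stood at 32.4, 30.8, 26.0 and 25.0 CPM in vehicle replicates against 4.53, 6.14, 6.47 and 4.80 CPM in PTH replicates (-2.39, adjusted p = 4.16e-08). In both genes the 4 PTH-treated samples were far from the 4 vehicle-treated ones. Smtn, smoothelin, fell from 143 ± 4.20 to 56.4 ± 4.07 CPM (-1.35, adjusted p = 1.18e-08), Ppp1r12b, a targeting subunit of myosin phosphatase, fell from 49.3 ± 2.14 to 21.8 ± 2.06 CPM (-1.18, adjusted p = 1.94e-07), and Hspb6 fell by 0.45 (adjusted p = 0.00490). Csrp1, a LIM-domain protein, rose by 0.36 (adjusted p = 0.00455). Mylk, the kinase of the myosin light chain, had 147 and 138 CPM (adjusted p = 0.355).

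Among 13 paralogues of the contractile genes that were listed as nonmuscle, 12 were tested, 4 were higher and 3 lower. This is a share not far from the 23.3% higher and 22.5% lower among all tested genes. The median log2 ratio was 0.09, and it turned to -0.03 with total counts as library size, where 3 were higher and 4 lower. Besides the actins and tropomyosins above, Tagln2 rose from 107 ± 6.85 to 225 ± 29.1 CPM (log2 ratio 1.07, adjusted p = 1.53e-06), Myl6, a light chain shared by smooth and nonmuscle myosin, rose by 0.36 (adjusted p = 0.0224) and Cnn2 fell by 0.49 (adjusted p = 3.42e-04). The nonmuscle myosin heavy chains Myh9 (log2 ratio 0.12, adjusted p = 0.348) and Myh10 (-0.13, adjusted p = 0.186) did not pass.

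Markers of osteoblasts and of other cells a calvarial culture could hold were read in the same samples, and their calls stand beside 23.3% higher and 22.5% lower among all tested genes. Osteoblast markers summed to between 76460 and 87301 CPM with vehicle and between 73070 and 105688 CPM with PTH, led by Col1a1, with 2 of 8 lower (Runx2 and Sp7) and 0 higher. Col1a1 and Col1a2 made up most of that sum, which therefore says little of the other markers. Sp7 fell from 103 ± 29.6 to 30.1 ± 3.26 CPM (log2 ratio -1.78, adjusted p = 4.45e-06) and Runx2 by 0.33 (adjusted p = 0.00362). Mural cell markers summed to 138 to 163 CPM with vehicle and 143 to 162 CPM with PTH, and Higd1b was at 0 in vehicle samples. Notch3, the highest with vehicle, was lower with PTH (log2 ratio -0.37, adjusted p = 6.70e-04). Mcam rose from 4.21 ± 0.752 to 23.2 ± 3.53 CPM (2.46, adjusted p = 5.96e-08). Sarcomeric muscle markers summed to 49.8 to 62.6 CPM and 45.1 to 56.0 CPM, led by Myh8, with 1 of 8 tested genes higher and 2 lower. Endothelial markers summed to 17.6 to 19.8 CPM and 26.8 to 46.5 CPM, nearly all of it Erg with vehicle, with 2 of 5 tested genes higher, while Emcn had 0 counts. Macrophage markers summed to 1026 to 1655 CPM and 1604 to 2084 CPM, led by Lyz2, with 3 of 8 higher, and adipocyte markers to 12.9 to 20.5 CPM and 13.4 to 21.9 CPM, with 0 of 5 tested genes called. The part of these cells in the changes of Srf, Cnn1 and the actins was not tested.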

How the data were processed

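Poly(A) RNA of 8 cultures, 4 with PTH and 4 with vehicle as their labels state, had been aligned by the authors to GRCm38 (mm10) with HISAT2 and assembled with StringTie2. The authors deposited whole-number counts for each gene, estimated from transcript coverage and not scaled between samples. The read length given to the counting script, the annotation version and the strand setting are not given in the sources used here. Total counts lay between 33605610 and 56090654 per sample.

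Genes passing filterByExpr (minimum count 10, minimum total 15) were compared with edgeR 4.0.16 in R 4.3.3 (TMM, two-sided quasi-likelihood F-test, Benjamini-Hochberg adjustment over 16736 genes, threshold 0.05), after tests on simulated counts. CPM used TMM-scaled library sizes, single values were compared by exact permutation over 70 assignments, on log2(CPM + 0.1) for genes and on percent for shares, and log2 CPM for distances had a prior count of 2. Alternatives were DESeq2 1.42.0, its size factors in edgeR, no filter, counts halved, counts summed by symbol, the sample number as a block, each sample left out, and, chosen after the data were seen, total counts as library size. Lengths and positions came from GENCODE M21, promoters from RefSeq, and shared sequence from blastn. SciPy 1.17.1, pandas 2.3.3 and matplotlib 3.10.9 were used.

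The genes and lists were chosen with earlier results of these data known. Named were all 10 genes, the called members of each list (in longer lists at least the largest changes each way), the highest marker of each cell type and the 5 genes nearest to Acta2. Members without a call are named where a family or cofactor group is described. A further list is counted among the related lists of the closing section, but its genes are not reported here.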

Additional observations from a re-analysis of the deposited data

Results flagged for a closer look

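In 46 sets of 4 values (the CPM of each of the 10 genes and the family shares, by treatment), 2 held a sample far from the other 3 by Dixon's test at the 95% level, and chance alone flags about 1 set in 20. Both were in vehicle replicate 4. Cald1 had 961 CPM there and 1022 to 1026 CPM in the other vehicle samples, and Tpm1 held 53.5% of tropomyosin counts there and 56.7% to 57.0% in the others.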

How the results depend on the processing

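Cnn1, Srf and Actg2 kept their direction and passed the test under all 15 alternatives, with log2 fold changes of 1.99 to 2.22 for Cnn1, -1.27 to -1.11 for Srf and -0.49 to -0.27 for Actg2. Acta2 kept its direction in all 15 and passed in 13. The number of the 10 genes called was 4 in every alternative on all samples except total counts as library size, where 7 were called, 6 of them lower, and where the related lists had 35 genes lower in place of 23. The cause was not tested, though this scaling moved the median of all genes to -0.13. The sign of Tpm2 was not stable: its log2 fold change was -0.095 with total counts, -0.00040 without the filter, -0.0042 without PTH replicate 1, -0.0051 without vehicle replicate 3 and -0.042 without vehicle replicate 4, with 0.11 without vehicle replicate 1 as the highest. That of Cald1 was -0.0076 with total counts.

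With each sample left out, 3 to 5 of the 10 genes, 33 to 38 genes of the related lists and 6671 to 8074 genes in all were called. The share of Acta2 among actins then differed by 7.09 to 8.17 percentage points, that of Tpm1 among tropomyosins by -9.84 to -8.62 and that of Tpm2 by -0.62 to -0.15.

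Samples of the same number were not shown to be paired: their deviations from the treatment means had correlations of -0.041 to 0.027 across genes. With the replicate number as a block, 4 of the 10 genes, 36 of the related lists and 7003 genes in all were called. For the Acta2 and Tpm1 shares, the paired differences were 7.70 and -9.01 percentage points, with an exact p of 0.125, the smallest that 4 pairs allow. The exon union moved 6 genes in the order of levels. The lowest count of any of the 10 genes was 451.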
